A study of Mus musculus with 2 samples.

Results

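The genes described here encode protein tyrosine phosphatases and dual-specificity phosphatases, chosen as the protein-coding genes of the RefSeq GRCm38.p6 table whose symbols begin Ptpn or Dusp with a number, or Ptpr with a letter. There were 62 among the 21523 protein-coding genes used. The 62 comprised 21 receptor-type genes (Ptpr), 17 non-receptor genes (Ptpn) and 24 dual-specificity genes (Dusp). One of the 21, Ptprcap, encodes a CD45-associated protein and no phosphatase, and the other 61 are named for phosphatases or their close relatives. The question put to the data was which of them lay near a binding peak of HLF, a PAR bZIP transcription factor, and where in each gene the peak sat.

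The peaks came from 1 anti-FLAG chromatin immunoprecipitation library, from Lin-Sca-1+c-Kit+ cells of C57BL/6 mice aged 8 to 10 weeks, with blood given as the tissue. The cells carried the MigR1 3xFLAG-HLF/HLF retrovirus and were cultured for 5 days with SCF at 50, IL-7 and Flt3L at 10 each and IL-3 at 5 ng/ml. The series has a second library, from cells given the MigR1 empty vector under the same culture. No peak list for that library was available here, so it was not analysed. The bound protein was thus a tagged one delivered by virus, and its amount relative to the cells' own HLF is not given in the sources used here. The list holds 3153 peaks of 400 bp with no height, so read depth and the strength of a peak are unknown. With 1 library there is no replicate, and no comparison below carries a test. All intervals are 95% intervals that cover counting error over genes or peaks only. Expression was not measured, so neither the label of the cells nor the activity of a gene could be checked from these data.

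Protein tyrosine phosphatases remove phosphate from tyrosine and so oppose tyrosine kinases. Receptor-type members span the membrane, and non-receptor members act inside the cell. Dual-specificity phosphatases also act on serine and threonine, and the MAP kinase phosphatases among them switch off ERK, JNK and p38. In blood cells, CD45 (Ptprc) and CD148 (Ptprj) act on Src-family kinases, SHP-1 (Ptpn6) restrains and SHP-2 (Ptpn11) promotes cytokine receptor signalling, and the MAP kinase phosphatases are often induced by the pathway they limit.

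Of the 62 genes, 16 had a peak centre inside the gene or at most 20 kb from either end, which is called near a peak here. That is 25.8% (exact Clopper-Pearson interval 15.5 to 38.5%), against 15.3% of all protein-coding genes. Phosphatase genes are long, with a median of 53.5 kb against 17.4 kb for all protein-coding genes, and a longer gene has more room for a peak. Among other protein-coding genes of the same length, 19.8% were near a peak, which would give 12.3 of 62. The share in the phosphatase genes was 1.31 times the length-matched share, with an interval of 0.786 to 1.95 that spans 1. As a group, therefore, the phosphatase genes could not be told from other genes of their length at these counts.

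The 16 genes had 20 distinct peaks, none of them shared between phosphatase genes. A single peak lay near 12 genes, and 4 genes (Ptprn, Ptprj, Ptpn3 and Dusp16) had 2. Of the 20 peaks, 12 were counted for no other protein-coding gene, 8 were also within reach of a neighbour, and for 15 the closest gene end belonged to the phosphatase gene. Most sat inside the gene: 13 of the 20 centres, or 65.0%, lay in the body, against 44.1% of all pairs of a peak and a nearby protein-coding gene, a share that also depends on gene length.

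**Figure D1:**
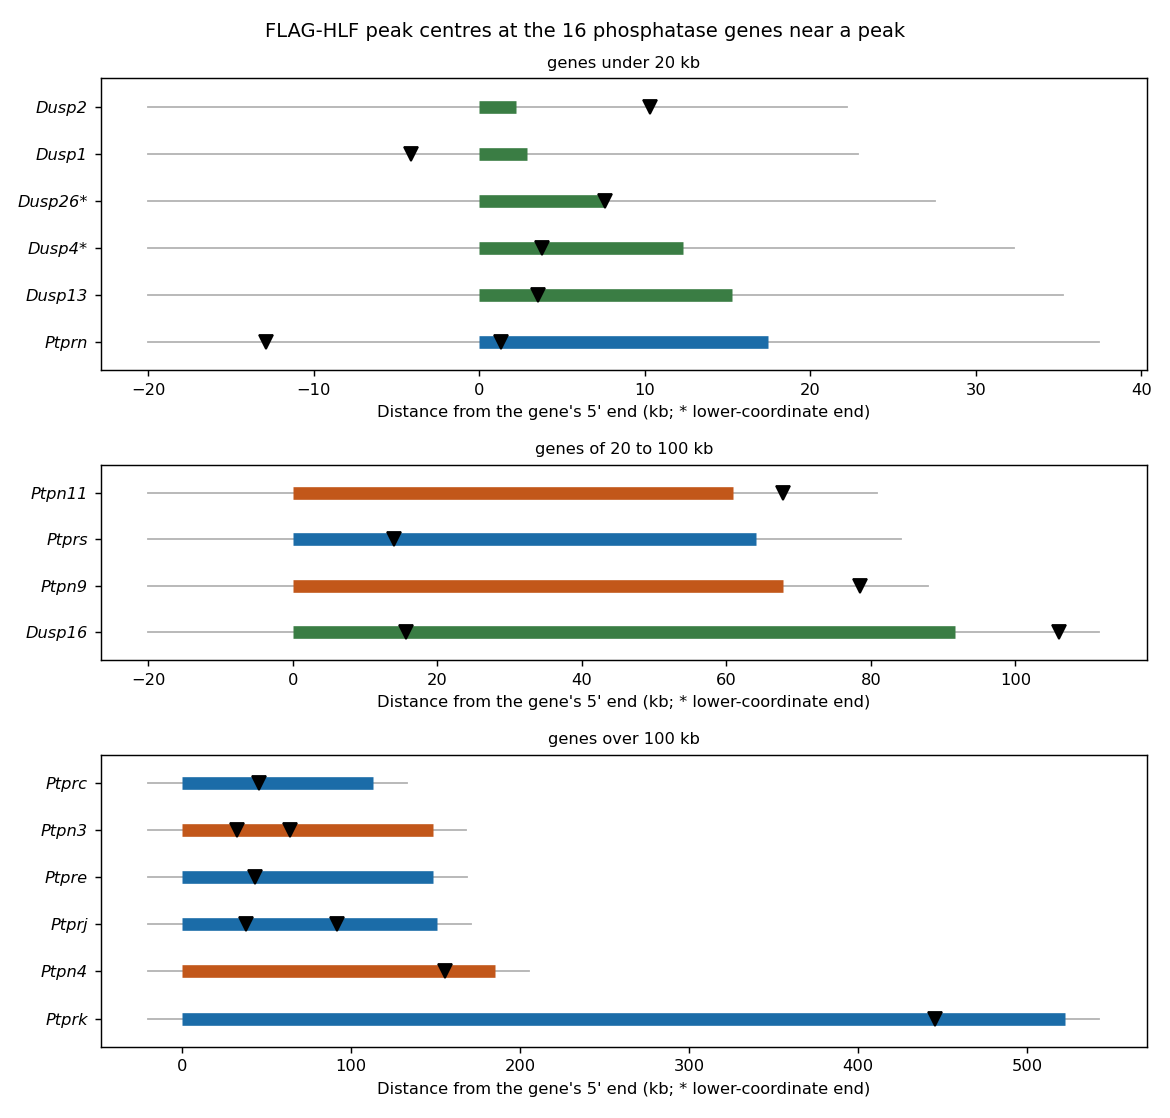
Maps of the 16 phosphatase genes near a peak, in 3 length classes. The x axis is the distance in kb from the 5′ end of the annotated gene (the lower-coordinate end for Dusp4 and Dusp26); thick bars are gene bodies (blue receptor-type, orange non-receptor, green Dusp), thin lines the 20 kb on each side, and triangles the 20 peak centres, of which 13 lie on a bar.

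Among the receptor-type genes, 6 of 21 were near a peak (28.6%, 11.3 to 52.2%), where the length-matched share gives 5.46. All 6 had a peak inside the body. Ptprc encodes CD45, the leukocyte common antigen. It had 1 peak (chr1:138130070-138130469) in the gene at chr1:138062859-138175756, centred 44.9 kb downstream of the nearest listed start and 40.3% of the way along. No other protein-coding gene lay within 20 kb of that peak. Ptprj, which encodes CD148, had 2 peaks 53.7 kb apart in a body of 151 kb. One (chr2:90542689-90543088) was centred 37.7 kb downstream of the gene's outer start, and the other (chr2:90488956-90489355) 9.98 kb upstream of a second, internal start. Neither was within 20 kb of another protein-coding gene, although the gene end closest to the first was that of Gm46752. Ptpre makes a receptor and a cytosolic form from different starts. Its single peak (chr7:135581074-135581473) lay between them, 43.4 kb downstream of the outer start and 12.2 kb upstream of the next. The peaks of Ptprc, Ptprj and Ptpre thus all lay 37.7 kb or more downstream of the gene's outermost listed start.

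The remaining receptor-type genes near a peak are better known outside blood. Ptprs encodes a LAR-group receptor that binds proteoglycans on neurons. Its peak (chr17:56462288-56462687) was 14.0 kb downstream of the outer start but centred 266 bp upstream of an internal listed start. Ptprk, whose product mediates adhesion between like cells, had 1 peak (chr10:28519957-28520356) at 445 kb from its start, 85.2% of the way along a body of 523 kb. Ptprn encodes IA-2, a protein of secretory granules without catalytic activity. Of its 2 peaks, one (chr1:75262973-75263372) was centred 599 bp downstream of a listed start, with Dnajb2 and Resp18 also within 20 kb. The other (chr1:75277179-75277578) lay 13.2 kb upstream, inside the neighbouring Resp18, so neither can be given to Ptprn alone.

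Start sites and strand were listed for 50 of the 62 genes by the RefSeq promoter sequences (GRCm38.p6), in 67 windows that each run from 250 bases before to 50 bases after a start. A single one of these windows, at the internal start of Ptprs, overlapped a peak, or 1.49%, against 0.691% of all 32851 windows. For Ptprs, Ptprn and Dusp16, each with a peak centre within 2 kb of a listed start, the bases before the closest start are shown. A further Ptprn start, 1036 bp from the same peak centre, is left out. The bases before the start of Ptpn23 are shown too, as they held a match to the sequence that PAR bZIP and C/EBP proteins bind. Each sequence runs 5′ to 3′ on the minus strand. Capitals mark the 184 bases under the peak in Ptprs and the motif match in Ptpn23.
Ptprs, chr17:56462222-56462471: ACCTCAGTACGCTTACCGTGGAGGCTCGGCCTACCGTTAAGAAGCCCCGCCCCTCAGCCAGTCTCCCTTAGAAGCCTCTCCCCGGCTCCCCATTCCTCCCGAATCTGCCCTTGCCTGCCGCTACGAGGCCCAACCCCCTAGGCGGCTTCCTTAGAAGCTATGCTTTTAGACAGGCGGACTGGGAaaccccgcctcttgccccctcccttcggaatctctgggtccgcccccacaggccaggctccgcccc
Ptprn, chr1:75263772-75264021: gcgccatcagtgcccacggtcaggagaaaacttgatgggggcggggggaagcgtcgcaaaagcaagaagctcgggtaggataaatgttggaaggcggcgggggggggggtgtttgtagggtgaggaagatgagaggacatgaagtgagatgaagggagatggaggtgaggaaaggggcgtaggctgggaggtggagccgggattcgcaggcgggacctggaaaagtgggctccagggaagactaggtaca
Dusp16, chr6:134792629-134792878: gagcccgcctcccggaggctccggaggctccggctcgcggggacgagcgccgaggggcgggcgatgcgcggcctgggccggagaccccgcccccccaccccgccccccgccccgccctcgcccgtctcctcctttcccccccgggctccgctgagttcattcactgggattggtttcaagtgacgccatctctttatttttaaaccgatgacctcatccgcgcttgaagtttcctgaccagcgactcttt
Ptpn23, chr9:110408211-110408460: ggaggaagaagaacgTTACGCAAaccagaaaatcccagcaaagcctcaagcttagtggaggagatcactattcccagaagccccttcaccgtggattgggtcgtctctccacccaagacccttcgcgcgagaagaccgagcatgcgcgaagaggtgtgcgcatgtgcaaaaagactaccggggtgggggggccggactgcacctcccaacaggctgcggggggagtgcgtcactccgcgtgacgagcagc

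The motifs searched, on both strands, were the 5 pairings of PAR bZIP and C/EBP half-sites TTACGTAA, TTATGTAA, TTGCGTAA, TTGCGCAA and TTGCATAA. Each is 8 bases long, and a window can hold several. Of all 32851 windows, 2.10% held at least 1 of them, and of the 227 windows that overlapped a peak 44 did, or 19.4% (14.5 to 25.1%). Among the 67 windows of phosphatase genes 1 did, that of Ptpn23, with TTGCGTAA on the other strand (TTACGCAA as printed), starting 235 bases before the start site. This motif occurred in 0.167% of all windows. The nearest peak to that start was 255 kb away. None of the 5 motifs occurred in the Ptprs, Ptprn or Dusp16 windows. The Ptprs letters under the peak cover a part of the 400 bp peak, and the rest of it was not searched.

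Non-receptor genes gave 4 of 17 near a peak (23.5%, 6.81 to 49.9%), where the length-matched share gives 3.63. Ptpn3 and Ptpn4 encode a pair of related phosphatases with FERM and PDZ domains, and both had peaks inside the body. Ptpn3 (chr4:57190841-57339040) had 2, 31.1 kb apart. One (chr4:57275193-57275592) was centred 26.4 kb downstream of its listed start, and the other (chr4:57306330-57306729) 4.69 kb upstream of that start but inside the annotated gene, where the centre also lay in the noncoding gene Gm12536. Ptpn4 (chr1:119652467-119837585) had 1 (chr1:119681641-119682040), centred 155 kb from its start and 84.1% of the way along. No other protein-coding gene shared these 3 peaks. The rest of the FERM-domain genes, Ptpn13, Ptpn14 and Ptpn21, had no peak within 95.0 kb.

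Ptpn11 encodes SHP-2, which relays signals from growth factor and cytokine receptors to RAS and ERK. Its peak (chr5:121123338-121123737) lay 6996 bp beyond the 3′ end and was counted for no other gene. Ptpn6, which encodes its paralogue SHP-1, had none nearer than 51.2 kb. Ptpn9, which encodes a phosphatase of secretory vesicles, had 1 peak (chr9:57073198-57073597) 10.6 kb beyond its 3′ end. That centre was inside the neighbouring Sin3a, a corepressor gene, whose end was also the closest. Just outside the 20 kb limit were Ptpn22, which restrains T cell receptor signalling, at 24.1 kb, and its relative Ptpn12 at 31.1 kb.

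The dual-specificity genes are short, with a median length of 11.8 kb. Of the 24, 6 were near a peak (25.0%, 9.77 to 46.7%), where the length-matched share of 13.2% gives 3.17. That share lay inside the interval. With each peak given to the gene with the nearest end within 100 kb, 6 Dusp genes were counted against 1.97 by length. The length-matched 8.22% then lay under the interval. These 6 were not all the same genes, as the Dusp2 peak went to Astl. The length bins stayed those of the gene with 20 kb flanks. With 5 kb flanks, 5 were counted against 1.63 (20.8%, 7.13 to 42.2%, length-matched 6.79%). With 50 kb flanks, 9 were counted (37.5%, 18.8 to 59.4%), and the length-matched 23.3% lay inside the interval. By any base of the peak, 6 were counted and the length-matched 13.3% also lay inside it. The 10 MAP kinase phosphatase genes and the other 14 differed in count. Of the 10, 4 were near a peak (40.0%, 12.2 to 73.8%) against 1.30 by length, and of the 14, 2 were (14.3%, 1.78 to 42.8%) against 1.87 by length. The lower bounds of 12.2% and 1.78% lie under the length-matched shares of 12.97% and 13.4%, so at 20 kb neither class stood apart from genes of its length by counting error, and the difference between the classes was not tested.

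Of the 4 genes for the nuclear, inducible MAP kinase phosphatases, 3 were near a peak (75.0%, 19.4 to 99.4%), where genes of like length give 0.490. Groups of this size were not compared with each other. Dusp1 (MKP-1), an early response gene that limits p38 and JNK, had 1 peak (chr17:26512400-26512799) centred 4.13 kb upstream of its start and counted for no other gene. Dusp4 (MKP-2) had 1 (chr8:34811212-34811611) inside the gene at 3.80 kb from the nearer end, also within 20 kb of Tnks. Dusp2 (PAC-1), a phosphatase of activated lymphocytes and myeloid cells, had 1 (chr2:127346293-127346692) 8.12 kb beyond its 3′ end. This centre was inside Astl and within 20 kb of Adra2b as well, and the closest gene end was that of Astl, so the gene it belongs to is unclear. Dusp5, an ERK phosphatase and the other member of the group, had no peak within 258 kb.

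Of the genes for JNK and p38 phosphatases, Dusp16 (MKP-7) had 2 peaks and Dusp8 and Dusp10 had none nearer than 308 kb. The first Dusp16 peak (chr6:134791223-134791622) was centred 1.21 kb downstream of the listed start. The second (chr6:134700815-134701214) lay 14.5 kb beyond the 3′ end, inside Borcs5. The cytoplasmic ERK phosphatase genes had 0 of 3 near a peak, where genes of like length give 0.259. A count of 0 of 3 genes allows a share of up to 70.8%. Dusp6 (MKP-3), a feedback inhibitor of ERK, was the closest of them at 30.5 kb. Dusp7 was 196 kb from its nearest peak and Dusp9, on X, 600.1 kb.

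Among the other dual-specificity genes, Dusp26 had the peak closest to a gene end of all 62. It was centred 88 bp outside the gene (chr8:31096935-31097334), and Rnf122 was within 20 kb as well. Dusp13, which makes distinct proteins in testis and muscle, had 1 peak (chr14:21744919-21745318) inside the gene, between its outer start at 3.50 kb and the next at 2.24 kb, with Samd8 within 20 kb. The other 12, among them Dusp3 (VHR) and Dusp22, had none. Of these, Dusp11 and Dusp14 came closest, at 42.8 and 48.3 kb.

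**Figure D2:**
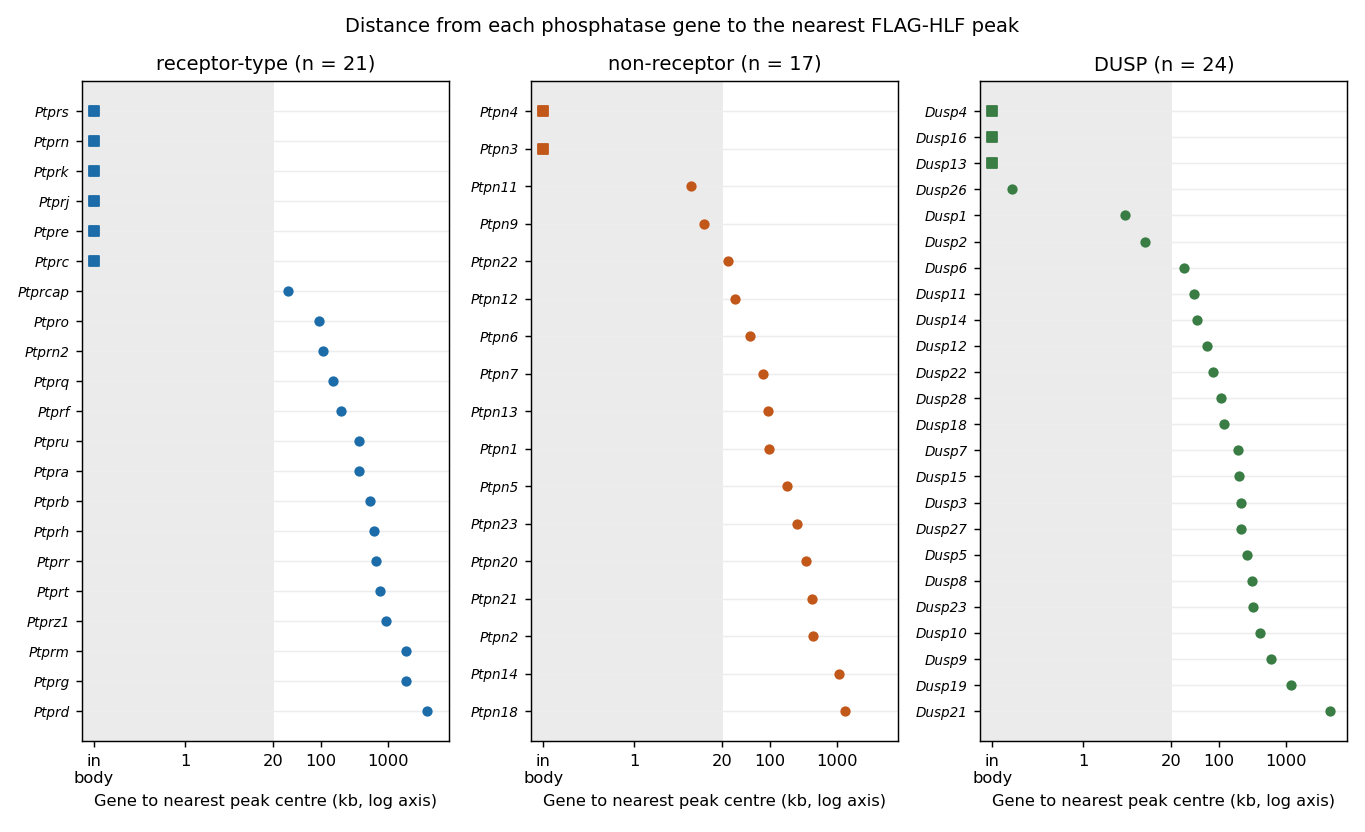
Distance in kb, on a log axis, from each of the 62 phosphatase genes to the nearest peak centre, by class. Squares are the 11 genes with a centre in the body, circles the others, and the grey zone marks 20 kb. In it, 6 of 6 receptor-type, 2 of 4 non-receptor and 3 of 6 Dusp genes are squares. Median gene length differs between these classes (151, 59.1 and 11.8 kb), and the counts in the body were not matched for length by class.

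By position, 11 of the 62 genes (17.7%, 9.20 to 29.5%) had a peak in the body, against 6.94% of all protein-coding genes and 11.9% of genes of like length. A peak within 1 kb of a gene end was found for 1 of the 62, Dusp26 (1.61%, 0.0408 to 8.66%), against 1.76% of all genes. Strand was known for 18 of the 20 peaks. Of these, 12 were inside the gene, 2 upstream of it and 4 beyond its 3′ end. Measured to the nearest listed start, 3 lay within 2 kb (at Ptprs, Ptprn and Dusp16) and 11 lay over 10 kb away.

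Of the 46 genes with no near peak, 6 had one at over 20 and up to 50 kb. They were Ptpn22, Dusp6, Ptpn12, Ptprcap at 32.5 kb, Dusp11 and Dusp14. The other 40 were farther away, 33 of them with no peak within 100 kb and 7 of those with none within 1 Mb. The 14 receptor-type genes beyond 50 kb ranged from Ptpro at 94.5 kb to Ptprd at 3.71 Mb. Ptpro and Ptprd encode a podocyte and a synaptic receptor. Between them in distance were Ptprn2, Ptprq, Ptprf, Ptpru, Ptpra, Ptprb, Ptprh, Ptprr, Ptprt, Ptprz1, Ptprm and Ptprg. The 11 non-receptor genes beyond 50 kb ranged from Ptpn6 to Ptpn18, at 1.29 Mb. They included Ptpn1 (PTP1B) at 97.0 kb, Ptpn2 (TC-PTP) at 435 kb and Ptpn7, the haematopoietic ERK-binding phosphatase gene, at 79.0 kb. The others were Ptpn13, Ptpn5, Ptpn23, Ptpn20, Ptpn21 and Ptpn14. The 15 Dusp genes beyond 50 kb ranged from Dusp12 at 67.9 kb to Dusp21 on X at 4.49 Mb. The others were Dusp22, Dusp28, Dusp18, Dusp7, Dusp15, Dusp3, Dusp27, Dusp5, Dusp8, Dusp23, Dusp10, Dusp9 and Dusp19. The list holds 25 peaks on X, and neither of the 2 phosphatase genes there was near one.

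Counted per Mb of gene body plus flanks, the phosphatase genes had 1.67 peaks (exact Poisson interval 1.02 to 2.58), against 1.80 for all protein-coding genes. This measure lay below the background where the share of genes lay above it, and its interval holds the background. It was 0.922 per Mb (0.398 to 1.82) in the receptor-type genes, 2.59 (0.840 to 6.03) in the non-receptor genes and 5.13 (2.06 to 10.6) in the Dusp genes, which are the shortest.

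The longest phosphatase genes had few peaks. There were 9 of 200 kb or more, all receptor-type, with 6.78 Mb of gene body in all. A single peak lay in or within 20 kb of them, that in Ptprk. Ptprd, Ptprt, Ptprn2, Ptprg, Ptprm, Ptprr, Ptpro and Ptprq had none. Of all 990 protein-coding genes of that length, 29.8% were near a peak, and the phosphatase share was 11.1% (0.281 to 48.2%). Per Mb of gene and flanks, the 9 genes had 0.140 peaks (exact Poisson interval 0.00355 to 0.781) against 0.917 for all genes of 200 kb or more. Length was not matched within this open class, and Ptprd alone spans 2.27 Mb. In the 10 genes of 100 to 200 kb, 5 were near a peak (50.0%, 18.7 to 81.3%), against 24.9% of all genes of that length, which lay inside the interval. These were Ptprc, Ptprj, Ptpre, Ptpn3 and Ptpn4, with 3.76 peaks per Mb (1.51 to 7.74) against 1.94. In the 24 genes under 20 kb, 6 were near a peak (25.0%, 9.77 to 46.7%), against 11.1% of all genes of that length, with 5.87 peaks per Mb (2.36 to 12.1) against 2.35. The 19 genes of 20 to 100 kb had 4 near a peak (21.1%, 6.05 to 45.6%), against 18.1%. The length classes were set after the values were seen and the intervals take peaks as independent, so these contrasts are descriptive.

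**Figure D3:**
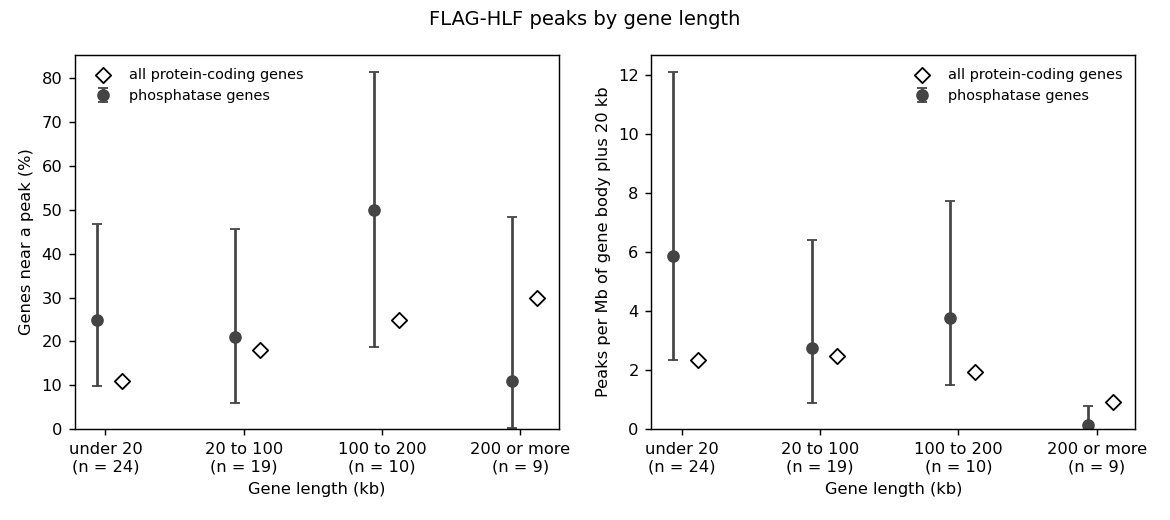
Share of genes near a peak (left) and peaks per Mb of gene body plus 20 kb flanks (right) by gene length. Filled circles are phosphatase genes with 95% exact intervals, and open diamonds all protein-coding genes: at 200 kb or more the phosphatase genes have 0.140 peaks per Mb against 0.917.

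Other genes of the same signalling steps were counted in the same way. Of 28 further genes of the tyrosine phosphatase superfamily or named after it, 6 were near a peak (21.4%, 8.30 to 41.0%), close to the length-matched 20.8%. They included Ssh2, a cofilin phosphatase gene, with 3 peaks in its body, and Cdc14a, with 2. Among the MAP kinase genes, whose products include the targets of MAP kinase phosphatases, 7 of 13 were near a peak (53.8%, 25.1 to 80.8%, length-matched 17.9%). Mapk14, the p38 alpha gene, had 3 peaks, while Mapk8 (JNK1) and Mapk9 (JNK2) had none within 131 kb. Mapk11 and Mapk12 are neighbours counted through 1 shared peak. Among non-receptor tyrosine kinase genes, 13 of 27 were near a peak (48.1%, 28.7 to 68.1%, length-matched 20.5%). Lyn, a Src-family kinase gene on which CD45 acts, had 2 peaks, as did Syk, and Csk and Jak2 had 1 each. Fyn, Lck and Src had none within 358 kb. The share was thus 1.31 times the length-matched one for phosphatase genes, 3.00 times for MAP kinase genes (1.40 to 4.50) and 2.35 times for the tyrosine kinase genes (1.40 to 3.32). The intervals overlap, and the differences between the groups were not tested.

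**Figure D4:**
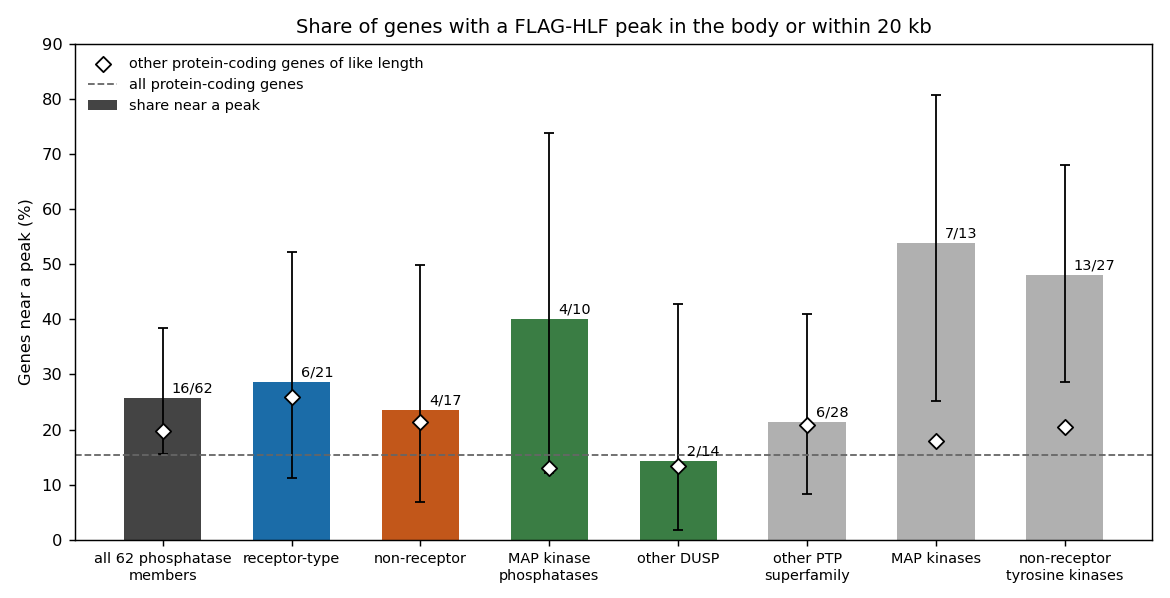
Share of genes near a peak, in percent, for the phosphatase genes, their classes and 3 other gene lists. Bars are shares with exact 95% intervals, white diamonds other protein-coding genes of like length, and the dashed line all protein-coding genes at 15.3%: the phosphatase bar (16 of 62) has an interval that spans its diamond, and the bars of MAP kinases (7 of 13) and tyrosine kinases (13 of 27) have intervals above theirs.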

How the data were processed

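The FLAG-HLF peak list (1 library) was deposited by the authors as chromosome, start and end of each peak, which are positions and no other measured unit. Bowtie2 2.0.6, MACS2 2.0.10 and mm10 are named, without roles, per the submitters' processing notes. The peak threshold, any use of the control library and the step that made every peak 400 bp wide were stated in none of the sources used. Weak sites may be missing, and a peak's extent and strength cannot be read.

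Peak centres (start + 200) were set against RefSeq genes of GRCm38.p6, whose chromosome coordinates are those of mm10. Of 49997 rows, 49214 on chromosomes 1 to 19 and X starting at 3 Mb or later were used. A gene counted as near a peak with a centre inside it or at most 20 kb from an end. The length-matched share is that of non-member protein-coding genes in the same bin of body plus flanks (20 bins on autosomes, 5 on X), averaged over the members. No test was run: the library has no replicate. Intervals are exact Clopper-Pearson or Poisson (scipy 1.17.1, Python 3.11.15). The assignment was tested on simulated peaks. Strand and starts came from RefSeq promoter windows, and no other genome sequence was used. Every member near a peak, and those up to 50 kb away, are named with distances. Members and lists were chosen with earlier results of these data known. Styxl2 was listed apart but is Dusp27 in this table.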

Additional observations from a re-analysis of the deposited data

How the results depend on the processing

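The ratio of the phosphatase share to the length-matched share stayed above 1 in all 12 alternatives run, from 1.24 (body or within 50 kb) to 1.68 (each peak given to the gene with the nearest end within 100 kb, 1.01 to 2.50). The alternatives reuse 1 peak list and mostly the same genes, so they are not independent checks. The interval of the ratio excluded 1 under the nearest-end rule alone. Merging peaks within 1 kb could not change the member count or peaks per Mb, since no peak near a phosphatase gene had another nearer than 14.2 kb. The Dusp count had a length-matched share below its interval under the nearest-end rule and with 5 kb flanks. That share lay inside the interval under the main rule, with 50 kb flanks and by any base of the peak. Of 37 alternatives, 34 kept their value within the counting error or 1.5 times of the count reported. The other 3, all counts, moved by construction of narrower or wider rules. The 34 include counts that could not change. Besides merging, these were the counts without Ptprcap and on autosomes, since neither Ptprcap nor a member on X was near a peak. With peaks counted for no other protein-coding gene, 10 members were near a peak in place of 16. The share of all protein-coding genes was then 6.06% in place of 15.3%. The length-matched share was 11.2%, and the ratio to it 1.44 (0.718 to 2.48). With 5 kb flanks, 2 non-receptor members were near a peak in place of 4, against 2.57 by length in place of 3.63. Within 5 kb of a gene end, 5 of the 62 members had a peak in place of 1. Of all protein-coding genes, 5.14% had one within 5 kb of an end, in place of 1.76% within 1 kb. Leaving out Ptprcap gave a ratio of 1.32. The restriction to autosomes (1.31) and to genes under 200 kb (1.58) was chosen after seeing the data. A stricter peak threshold could not be run because the list has no score. Unknown depth limits every statement that a gene had no peak. No paired analysis was possible because there is 1 FLAG-HLF library, which also leaves no replicate to omit.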
